A study of Mus musculus with 26 samples.

Results

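Crhbp, Clgn, Myl10, Ttll11, Vat1l, Syndig1l and Tenm4 are 7 little-studied genes whose RNA was far lower when CXCL12 was added to cultured mouse pre-B cells without interleukin 7 (IL-7). They were picked by name for a large fall with CXCL12 in CXCR4-sufficient cultures, or for a large difference of that response between genotypes. All 7 were found among the 23762 gene symbols of the count table, and all 7 passed the filter on low counts that left 14862 genes tested. Because measured values chose them, their response to CXCL12 in either genotype is given below as a description with no test. Tests are given for other comparisons only, with any libraries they share with the choice named beside them.

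The RNA-seq comprised 18 libraries in 9 groups of 2 from mouse B cell progenitors, in a series on CXCR4, which binds the chemokine CXCL12. Of the cultured groups, 2 were CXCR4-/- cells labelled as small pre-B cells, both without IL-7 (a cytokine that B cell progenitors need to grow), one with CXCL12 and one without it. Cultures not labelled CXCR4-/-, called CXCR4-sufficient here, formed 5 groups labelled, with the exceptions below, as pre-B cells. Their media held CXCL12 and ERK inhibitor II (a blocker of the ERK kinases) but no IL-7, or were with IL-7 and CXCL12, without IL-7 with CXCL12, without IL-7 alone, and with IL-7 alone. Sorted CXCR4-/- small pre-B cells and sorted small pre-B cells of a wild-type label made up the last pair of groups. Age, strain, the route by which CXCR4 was deleted, and the doses and times of the factors are not stated in the labels. Replicate 2 without IL-7 was titled as small pre-B, and replicate 2 without IL-7 with CXCL12 is pre-B in its title but small pre-B in the count table, so cell stage goes with genotype in part. Totals were 17257914 to 50235192 counts per library. Levels are CPM, each count over its library total after TMM scaling, as mean ± SD over n = 2 libraries where a mean is given, and a log2 change carries its SE.

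CXCL12 is a chemokine of bone marrow stroma that keeps B cell progenitors in their niche through CXCR4, a receptor coupled to G proteins and to the ERK pathway. IL-7 drives proliferation of pre-B cells, and its loss lets them pass to the small pre-B stage, when immunoglobulin light chains are assembled. Most of the genes described here are known from other tissues. Crhbp encodes a secreted protein that binds corticotropin-releasing hormone, and Clgn (calmegin) a chaperone of the endoplasmic reticulum that is related to calnexin and is needed for male fertility in mice. Myl10 is a regulatory light chain of myosin that was named for precursor lymphocytes, and Ttll11 adds glutamate chains to tubulin. Syndig1l is a membrane protein related to a synaptic partner of glutamate receptors, Tenm4 is a teneurin adhesion protein with a role in myelination in mice, and Vat1l is a little characterised homologue of the reductase-like protein Vat1.

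The promoters of Crhbp, the gene with the largest fold fall, and of Vat1l, the gene with the largest fold difference between genotypes in CXCL12, are shown as examples of the sequence around the starts of these genes. Both windows are from RefSeq on GRCm38.p6 and run from 250 bases before to 50 bases after an annotated start. The build of the deposited data is another, mm9, so these positions were joined to the counts by gene symbol alone. Capitals mark matches to the motifs searched.
Crhbp, chr13:95444782-95445081, minus strand: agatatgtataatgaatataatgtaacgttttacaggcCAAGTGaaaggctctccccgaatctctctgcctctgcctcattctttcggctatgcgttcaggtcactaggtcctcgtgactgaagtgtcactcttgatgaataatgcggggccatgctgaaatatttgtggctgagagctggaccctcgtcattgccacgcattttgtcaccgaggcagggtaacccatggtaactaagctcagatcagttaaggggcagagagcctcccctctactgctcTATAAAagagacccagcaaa
Vat1l, chr8:114205390-114205689, plus strand: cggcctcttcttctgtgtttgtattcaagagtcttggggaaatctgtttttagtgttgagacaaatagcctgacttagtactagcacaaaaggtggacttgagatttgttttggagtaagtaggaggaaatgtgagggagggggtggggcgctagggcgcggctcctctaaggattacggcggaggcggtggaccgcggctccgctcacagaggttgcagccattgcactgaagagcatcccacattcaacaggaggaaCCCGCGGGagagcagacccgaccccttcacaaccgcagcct

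Motifs of 7 kinds were searched on both strands, each written with its letters. They were the E-box CANNTG, a STAT site TTCNNNGAA, a FOXO site TGTTTAC, an EBF1 site CCCNNGGG, an Ikaros site TGGGAA, the cyclic AMP element TGACGTCA and the TATA box TATAAA. The Crhbp window held 1 E-box, a motif found in 72.3% of 32851 RefSeq promoter windows of that length, and 1 TATAAA, found in 13.6% of them. The TATAAA of Crhbp lies at position 31 after the annotated start, not before it. The Vat1l window held 1 EBF1 motif, found in 13.7% of windows. Promoters of 4 of the 7 genes were matched, and Myl10 has 3 and Tenm4 2 annotated starts. The first Myl10 window held 2 E-boxes, 1 EBF1 and 1 Ikaros motif (25.6% of windows), the second 2 EBF1 motifs and the third 1 Ikaros motif. The Tenm4 windows held 2 and 3 E-boxes, and the first of them also 1 Ikaros motif. No window of the 4 genes held the letters of the STAT motif (8.3% of windows), the FOXO motif (3.65%) or the cyclic AMP element (1.79%). GC content was 48.0% at Crhbp and 54.3% at Vat1l, beside a median of 52.67% over all windows. These matches are letters in a window and no measure of binding.

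Several libraries stood apart from their labels or from their pair. Cxcr4 was at 37.2 and 409 CPM in the sorted libraries labelled CXCR4-/- against 943 and 922 CPM in sorted wild-type cells, so the library labelled CXCR4-/- replicate 2 went against its label in part. In CXCR4-/- cultures Cxcr4 was still at 114 to 137 CPM, and which exons were deleted is not stated. Replicates of CXCR4-/- cultures without IL-7 differed widely, with a chi-square of 284 per degree of freedom where counting noise alone gives about 1. The pairs without IL-7 with CXCL12, at 1.34, and without IL-7, at 1.499, differed by little more than counting noise, and nothing in the labels tells whether replicates came from separate animals or cultures. Unless a fit of only the groups compared is named, the p-values below rest on a spread per gene pooled over all groups. The CXCR4-/- pair that differed widely enters that spread, and it is not the spread of the compared pairs alone. Library-to-library spread may also be technical only. Gapdh was at 1399 to 1730 CPM in the 4 libraries with IL-7 and CXCL12 or with the ERK inhibitor and at most 12.3 CPM in the other 14, so contrasts between these sets carry that difference too. B lineage markers were present in every library, their 12 genes summing to between 4842 and 11246 CPM.

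With CXCL12 in the medium without IL-7, all 7 genes were far lower than without it, and in no case did the 4 libraries overlap. These values chose the genes, so that separation is a description only. Crhbp stood at 2.68 and 2.31 CPM with CXCL12 against 132 and 134 CPM without it, a 53.3-fold lower mean. Clgn, the chaperone, stood at 2.08 and 1.98 CPM with CXCL12 against 75.1 and 71.4 CPM, a 36.0-fold lower mean. The secreted binding protein and the chaperone were thus measured by few reads in the cultures with CXCL12, Crhbp by 121 and 42 and Clgn by 94 and 36.

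The cytoskeletal pair kept more of its RNA than Crhbp and Clgn did. Myl10 stood at 46.4 and 46.8 CPM with CXCL12 against 501 and 521 CPM without it, an 11.0-fold lower mean. Ttll11 stood at 4.50 and 4.13 CPM with CXCL12 against 38.0 and 36.5 CPM, an 8.64-fold lower mean. Among the genes of membrane proteins, Syndig1l was at 1.44 and 1.82 CPM with CXCL12 against 24.0 and 23.5 CPM. Tenm4 was at 7.34 and 6.93 CPM with CXCL12 against 55.4 and 55.1 CPM without it. Its mean was 7.74-fold lower, the smallest fold fall of the 7. Vat1l was at 1.15 and 0.990 CPM with CXCL12 against 22.3 and 22.3 CPM without it, from 52 and 18 reads in the libraries with CXCL12.

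On the log2 scale the changes were -5.71 ± 0.34 for Crhbp, -5.16 ± 0.12 for Clgn, -4.35 ± 0.17 for Vat1l, -3.90 ± 0.17 for Syndig1l, -3.45 ± 0.35 for Myl10, -3.10 ± 0.20 for Ttll11 and -2.95 ± 0.54 for Tenm4. Ordered by size of fall among all 14862 genes tested, these were ranks 6, 11, 23, 35, 50, 67 and 78. The genes with a mean log2 CPM of at least 3 over the 18 libraries numbered 9510. Among those the 7 held ranks 3, 4, 7, 8, 9, 11 and 14. Genes were picked for large falls here, so high ranks are no separate result. The other ranks down to 14 were held by Gm266, Gldc, Mc1r, Ighg2c, Epcam, Vpreb2 and Thy1, and just outside them lay Sema4a at -2.79. Over all genes tested, 13.2% were called lower with CXCL12 in this comparison (adjusted p under 0.05 in edgeR's quasi-likelihood test), which chose the genes and is therefore read no further. In bulk RNA, fewer cells of a type and less RNA per cell cannot be told apart.

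**Figure D1:**
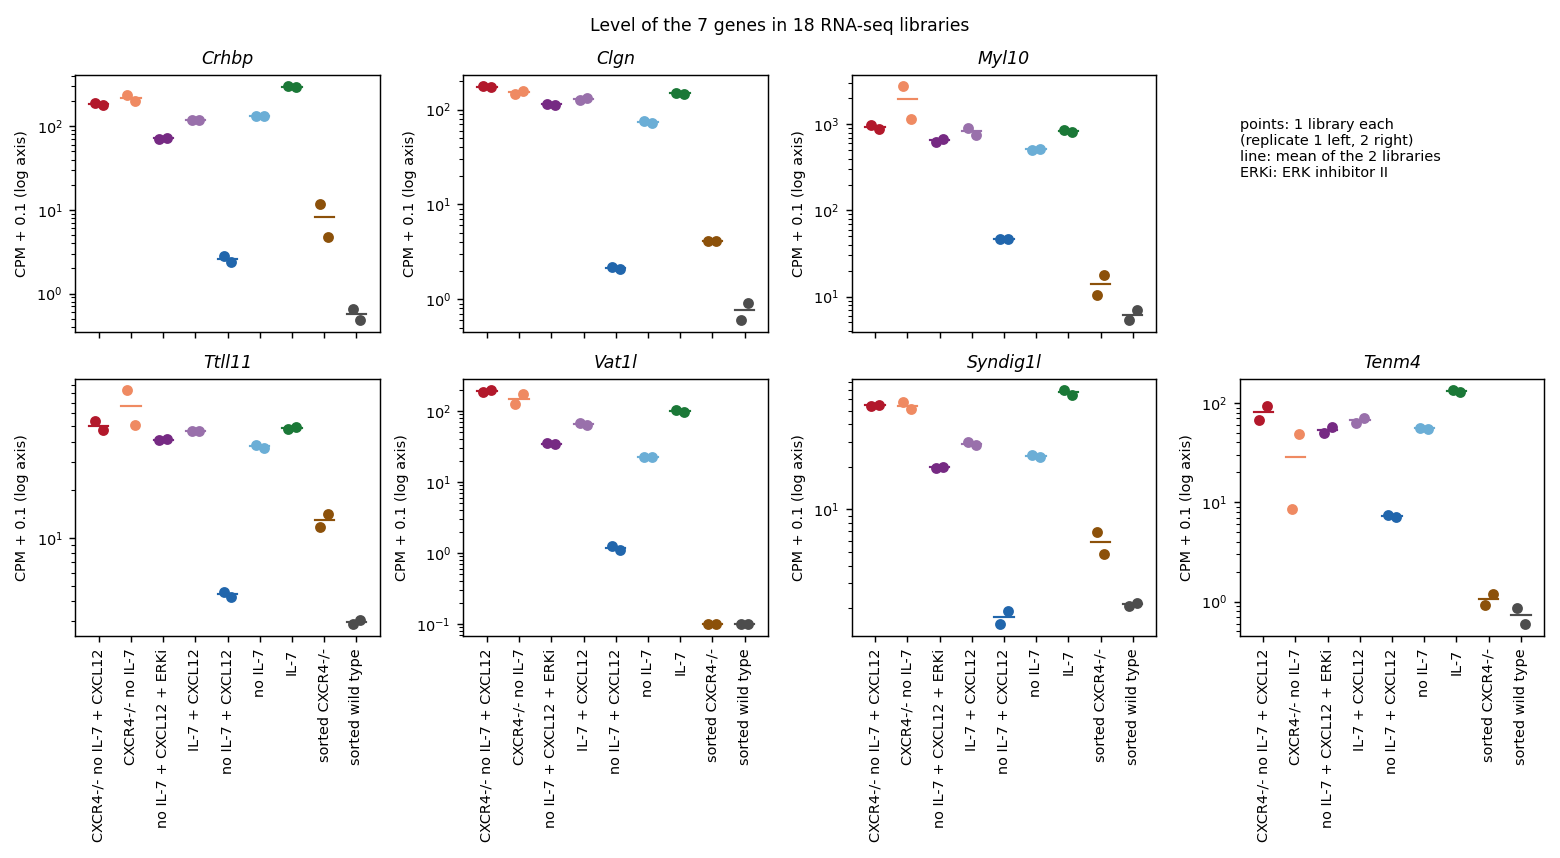
Levels of the 7 genes as CPM plus 0.1 on a log axis, 1 point per library with a line at the mean of each pair, in the CXCR4-/- cultures, the CXCR4-sufficient cultures and the sorted cells (ERKi, ERK inhibitor II). In all 7 panels the cultures without IL-7 with CXCL12 lie below every other culture group, with Tenm4 in 1 CXCR4-/- culture, at 8.50 CPM, nearest to them.

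Markers of other cell types moved in the same comparison. Stromal markers, 14 genes of which Lum was at 0, summed to 4250 and 4145 CPM with CXCL12 against 1699 and 1663 CPM without it, and 8 of 13 tested were called higher and 0 lower. Myeloid markers, 19 genes, summed to 936 and 932 CPM with CXCL12 against 374 and 369 CPM, with 7 higher and 0 lower. The B lineage sum was 7551 and 7417 CPM with CXCL12 against 6869 and 6765 CPM without it. Of its 12 genes 4 were called higher and 2 lower. The part of other cell types in the lower levels of the 7 genes was not tested.

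In CXCR4-/- cultures without IL-7 the 7 genes stayed at or above 47.2 CPM with CXCL12. Crhbp was at 192 and 177 CPM with CXCL12 against 233 and 199 CPM without it in CXCR4-/- cells, and Clgn at 176 and 174 CPM against 144 and 159 CPM. Vat1l was at 186 and 195 CPM with CXCL12 against 126 and 174 CPM without it, and Syndig1l at 53.9 and 55.0 CPM against 57.4 and 50.8 CPM. For Crhbp the group with CXCL12 lay below its pair, for Clgn and Vat1l above it, and for Syndig1l the groups overlapped.

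The remaining 3 genes depended on the library that stood apart. Myl10 was at 979.6 and 886 CPM with CXCL12 against 2768 and 1144 CPM without it in CXCR4-/- cultures. Ttll11 was at 53.3 and 47.2 CPM with CXCL12 against 83.6 and 50.4 CPM without it. Tenm4 was at 68.0 and 92.3 CPM with CXCL12 against 8.50 and 48.3 CPM without it. In each case replicate 1 without CXCL12 was the extreme value, high for Myl10 and Ttll11 and low for Tenm4.

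The log2 changes with CXCL12 in CXCR4-/- cultures were -0.23 ± 0.26 for Crhbp, 0.21 ± 0.10 for Clgn, -1.07 ± 0.32 for Myl10, -0.42 ± 0.18 for Ttll11, 0.35 ± 0.13 for Vat1l, 0.01 ± 0.14 for Syndig1l and 1.51 ± 0.51 for Tenm4. Without that library they were -0.10, 0.15, -0.28, 0.01, 0.14, 0.11 and 0.74 in the same order of genes. The difference between genotypes, CXCR4-/- minus sufficient, lay between 2.39 ± 0.46 for Myl10 and 5.48 ± 0.41 for Crhbp. It was 5.37 ± 0.15 for Clgn, 4.69 ± 0.22 for Vat1l, 4.45 ± 0.74 for Tenm4, 3.91 ± 0.22 for Syndig1l and 2.69 ± 0.26 for Ttll11. Without the library that stood apart it lay between 3.20 for Ttll11 and 5.70 for Crhbp, with 3.27 for Myl10 and 3.78 for Tenm4, and without the other replicate of that group it was 6.18 for Tenm4. Over all genes, 12.1% were called higher in this difference, which also chose the genes.

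The genotypes stood furthest apart with CXCL12 present. Vat1l was then 178-fold higher in CXCR4-/- than in sufficient cultures, Clgn 86.0-fold, Crhbp 73.8-fold, Syndig1l 33.4-fold, Myl10 20.0-fold, Ttll11 11.7-fold and Tenm4 11.2-fold higher. Without CXCL12 the log2 difference between CXCR4-/- and sufficient cultures was 2.74 for Vat1l, 1.94 for Myl10, 1.19 for Syndig1l, 1.05 for Clgn, 0.85 for Ttll11, 0.70 for Crhbp and -0.97 for Tenm4. Replicate 1 of the CXCR4-/- cultures without CXCL12, which stood apart, bore on these values. Without it the difference was 1.09 for Myl10, 0.37 for Ttll11 and -0.26 for Tenm4, while Tenm4 stood at -2.70 without replicate 2. In the medium without CXCL12 several of the genes thus differed between genotypes too, most of all Vat1l. The median over all genes was -0.13. Counted upward from the lowest change among 14862 genes, all libraries fitted, Vat1l stood at 14748, Myl10 at 14338 and Syndig1l at 13113. Clgn stood at 12705, Ttll11 at 12031, Crhbp at 11441 and Tenm4 at 4099. No share of all genes called is given for this contrast, so these differences are not read as particular to the 7. Stromal markers summed to at most 11.1 CPM in the CXCR4-/- cultures, myeloid markers to at most 22.1 CPM with S100a8 at 0 in those with CXCL12, and their part in the difference was not tested.

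**Figure D2:**
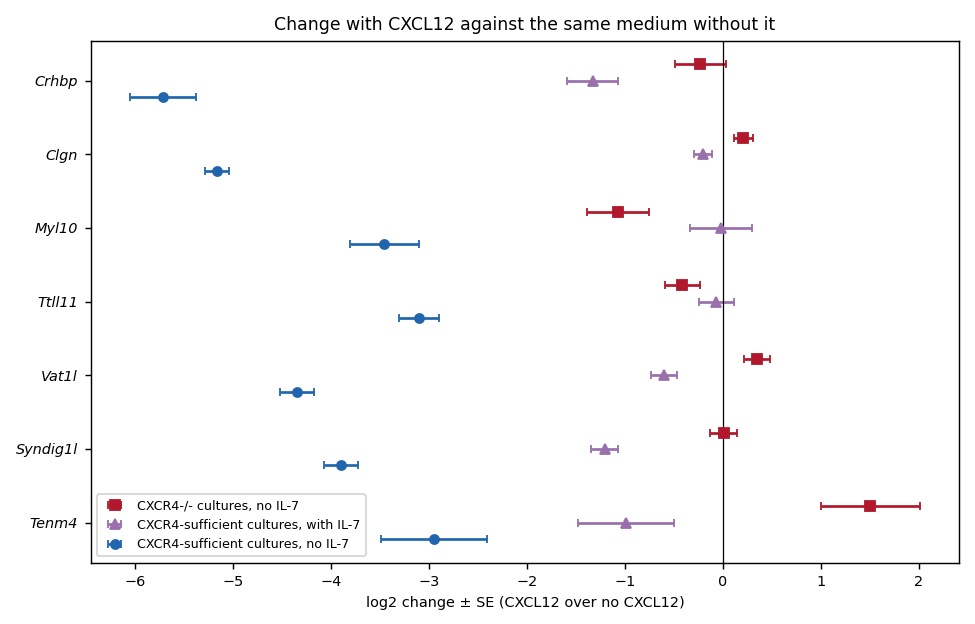
Log2 change with CXCL12 over the same medium without it, ± SE, for CXCR4-/- cultures without IL-7, CXCR4-sufficient cultures with IL-7 and CXCR4-sufficient cultures without IL-7, from 2 libraries per group. For each of the 7 genes the sufficient cultures without IL-7 lie furthest to the left, between -5.71 and -2.95, while CXCR4-/- cultures lie between -1.07 and 1.51.

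Where IL-7 was present, the 7 genes were far less reduced. Crhbp was at 119 and 117 CPM with IL-7 and CXCL12 against 301 and 292 CPM with IL-7 alone, and Tenm4 at 62.2 and 71.2 CPM against 134 and 129.9 CPM. Syndig1l was at 29.8 and 28.3 CPM with both factors against 69.4 and 64.6 CPM with IL-7 alone, and Vat1l at 68.1 and 63.95 CPM against 103 and 98.1 CPM. Clgn, Myl10 and Ttll11 were closer, Clgn at 125 and 133 CPM against 151 and 146 CPM, Myl10 at 894 and 759 CPM against 856 and 821 CPM, and Ttll11 at 46.2 and 46.2 CPM against 47.6 and 49.2 CPM. Log2 changes were -1.33 ± 0.26 for Crhbp, -1.20 ± 0.14 for Syndig1l, -0.98 ± 0.49 for Tenm4, -0.60 ± 0.13 for Vat1l, -0.20 ± 0.09 for Clgn, -0.07 ± 0.18 for Ttll11 and -0.02 ± 0.32 for Myl10. Only Myl10 overlapped between these 2 groups, and the share of all genes without overlap was not counted. The groups come from the 2 sides of the Gapdh split, so CXCL12 and the set of libraries cannot be told apart here.

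With the ERK inhibitor beside CXCL12 and without IL-7, all 7 genes stood above the level with CXCL12 alone. Crhbp and Syndig1l lay below every other culture group except that one. Crhbp was at 71.2 and 71.9 CPM with the inhibitor, Clgn at 115 and 111 CPM, Myl10 at 630.3 and 680.3 CPM, and Ttll11 at 40.6 and 41.2 CPM. Vat1l was at 34.8 and 33.99 CPM with the inhibitor, Syndig1l at 19.4 and 19.9 CPM and Tenm4 at 49.3 and 56.7 CPM. Against CXCL12 alone, whose libraries chose the genes, the log2 differences ran from 2.89 for Tenm4 to 5.79 for Clgn. Clgn, Myl10, Ttll11 and Vat1l lay above the cultures without IL-7 and without CXCL12, and Tenm4 overlapped them. The inhibitor and the Gapdh-high set of libraries cannot be told apart in these contrasts.

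The sorted small pre-B cells share no library with the comparisons that chose the genes. There 5 of the 7 genes were called higher in CXCR4-/- cells than in wild-type cells by edgeR's quasi-likelihood test with Benjamini-Hochberg adjustment, beside 16.6% of all genes tested that were called higher. Crhbp was at 11.6 and 4.61 CPM in sorted CXCR4-/- cells against 0.556 and 0.383 CPM in wild-type cells, where it had 11 and 7 reads, with a log2 change of 4.10 ± 0.43 (adjusted p = 1.8e-05), and of 3.26 without CXCR4-/- replicate 1. Clgn was at 4.03 and 4.02 CPM in CXCR4-/- cells against 0.505 and 0.821 CPM, a log2 change of 2.61 ± 0.16 (adjusted p = 1.7e-07). Fitted by the same test on only the sorted groups, the errors were wider for Crhbp, Clgn and Syndig1l. They were narrower for Myl10, Ttll11 and Tenm4. Crhbp then changed by 4.13 ± 0.59 (adjusted p = 0.0048) and Clgn by 2.63 ± 0.38 (adjusted p = 0.0033). For both genes every CXCR4-/- library lay above every wild-type library. How many of all genes separated in this way was not counted, here or for the genes below.

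Ttll11 was at 11.6 and 13.9 CPM in sorted CXCR4-/- cells against 2.78 and 2.96 CPM in wild-type cells, a log2 change of 2.15 ± 0.21 (adjusted p = 1.1e-05). Syndig1l was at 6.85 and 4.75 CPM in CXCR4-/- cells against 1.97 and 2.08 CPM, a log2 change of 1.52 ± 0.17 (adjusted p = 3.6e-05). By the same test on only the sorted groups, Syndig1l changed by 1.55 ± 0.30 (adjusted p = 0.0089). Myl10 was at 10.4 and 17.8 CPM in CXCR4-/- cells against 5.26 and 6.84 CPM, a log2 change of 1.21 ± 0.36 (adjusted p = 0.020). The groups did not overlap for these 3 genes, but the call of Myl10 was lost without CXCR4-/- replicate 2 (0.78, adjusted p = 0.165), without wild-type replicate 1 (1.03, adjusted p = 0.150) and without wild-type replicate 2 (1.41, adjusted p = 0.0504).

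Tenm4 and Vat1l were not called. Tenm4 was at 0.818 and 1.09 CPM in sorted CXCR4-/- cells against 0.758 and 0.493 CPM in wild-type cells, a log2 change of 0.58 ± 0.93 (adjusted p = 0.68). Vat1l had 0 reads in all 4 sorted libraries, where the 3 counts that a count of 0 allows come to at most 0.0909 and 0.109 CPM in CXCR4-/- cells and 0.152 and 0.164 CPM in wild-type cells. It was the only one of the 7 with no reads there, although its level reached 195 CPM in culture. The median log2 change of the 7 genes was 1.52, counting Vat1l as 0, beside -0.01 over all genes.

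Other cell states moved with the sorted groups as well. Mature B cell markers were called lower in CXCR4-/- cells for 7 of 8 genes and higher for 0, and summed to 614 and 736 CPM in CXCR4-/- cells against 1490 and 1415 CPM in wild-type cells. Progenitor markers were called higher for 3 of 6 and lower for 1, with sums of 333 and 488 CPM in CXCR4-/- cells against 114 and 116 CPM. Vpreb1, Vpreb2 and Igll1, which make the surrogate light chain of earlier pre-B cells, were higher by 2.44, 1.91 and 2.22 on the log2 scale (adjusted p = 4.5e-04, 9.4e-04 and 6.4e-05). They were the 3 called higher among the 12 B lineage markers, of which 3 others were called lower, with a median log2 change of -0.10. The 12 summed to 7237 and 8759 CPM in CXCR4-/- cells against 11246 and 10851 CPM in wild-type cells. Myeloid markers differed between the CXCR4-/- replicates, at 7215 and 1260 CPM, against 5799 and 5753 CPM in wild-type cells, with 3 of 19 called higher and 4 lower. The part of cell stage and of other cells in the higher levels was not tested.

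**Figure D3:**
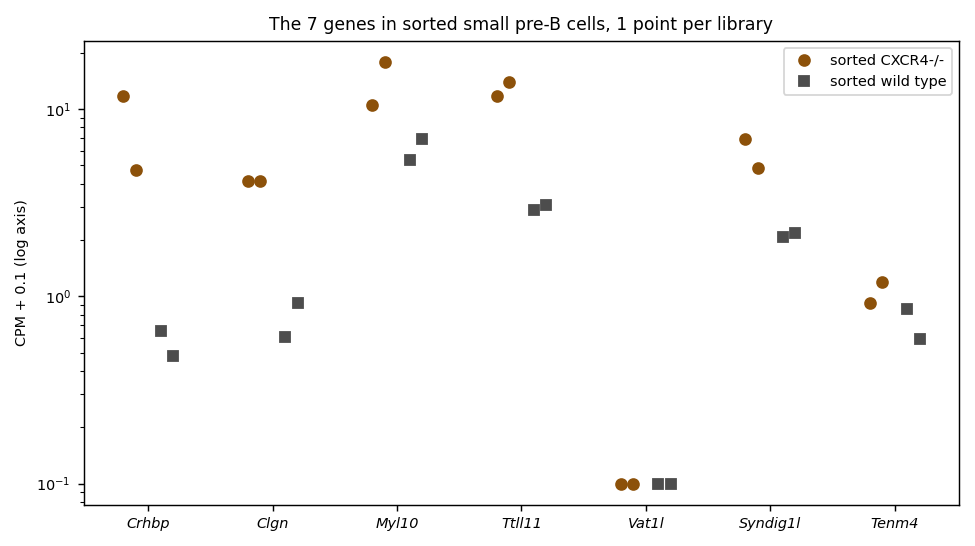
Levels of the 7 genes in sorted CXCR4-/- and sorted wild-type small pre-B cells, as CPM plus 0.1 on a log axis with 1 point per library. The CXCR4-/- points lie above the wild-type points for Crhbp, Clgn, Myl10, Ttll11, Syndig1l and, within 1.09 CPM, Tenm4, while Vat1l is at 0 in all 4 libraries.

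Removal of IL-7 alone also went with lower levels. This comparison shares its libraries without IL-7 with the one that chose the genes, and its libraries with IL-7 may have entered the choice too, so its calls are not independent of that choice. Of the 7 genes 4 were called lower without IL-7 and 0 higher, beside 6.23% of all genes called lower. Vat1l was at 22.3 and 22.3 CPM without IL-7 against 103 and 98.1 CPM with it, a log2 change of -2.17 ± 0.14 (adjusted p = 1.6e-05). Syndig1l was at 24.0 and 23.5 CPM without IL-7 against 69.4 and 64.6 CPM with it, a log2 change of -1.50 ± 0.14 (adjusted p = 5.4e-05).

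Clgn was at 75.1 and 71.4 CPM without IL-7 against 151 and 146 CPM with it, a log2 change of -1.02 ± 0.10 (adjusted p = 5.2e-05). Crhbp was at 132 and 134 CPM without IL-7 against 301 and 292 CPM with it, a log2 change of -1.15 ± 0.26 (adjusted p = 0.014). The call of Crhbp was lost when any 1 of the 4 libraries was left out, with an adjusted p of 0.062 to 0.114. Log2 changes of the 3 genes not called were -1.26 ± 0.49 for Tenm4 (adjusted p = 0.13), -0.72 ± 0.32 for Myl10 (adjusted p = 0.18) and -0.38 ± 0.18 for Ttll11 (adjusted p = 0.21). None of the 7 overlapped between the 2 groups, but the share of all genes without overlap was not counted, so this adds nothing to the calls. In the fit without the CXCR4-/- culture that stood apart all 7 were called, beside 18.2% of all genes called lower there, Tenm4 with an adjusted p of 2.6e-06, Myl10 of 0.0057 and Ttll11 of 9.2e-04. Stromal markers summed to 1699 and 1663 CPM without IL-7 against 709 and 1218 CPM with it. Their median log2 change was 0.79 over the 13 tested beside 0.05 over all genes, with 0 called higher and 0 lower.

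A further contrast of low against high IL-7 lies within the Gapdh-high set of libraries, all with CXCL12, though it joins the loss of IL-7 with the ERK inhibitor. The group with IL-7 and CXCL12 may have entered the choice of genes, so these calls are not independent of it either. With the inhibitor and without IL-7, 2 of the 7 genes were called lower than with IL-7 and CXCL12, and 0 higher, beside 4.54% of all genes called lower. Vat1l was at 34.8 and 33.99 CPM with the inhibitor against 68.1 and 63.95 CPM, a log2 change of -0.94 ± 0.13 (adjusted p = 0.0014). Syndig1l was at 19.4 and 19.9 CPM with the inhibitor against 29.8 and 28.3 CPM, a log2 change of -0.56 ± 0.14 (adjusted p = 0.022), and was not called without any 1 of the 4 libraries (adjusted p of 0.0747 to 0.144). Changes of the other 5 genes were between -0.72 ± 0.26 for Crhbp (adjusted p = 0.11) and -0.18 ± 0.18 for Ttll11 (adjusted p = 0.66). Without the CXCR4-/- culture that stood apart 5 genes were called, beside 18.6% of all genes called lower, Crhbp (adjusted p = 0.028), Clgn (0.0065) and Tenm4 (0.032) being added. In the same contrast 9 of 13 stromal and 9 of 19 myeloid markers were called higher and 0 lower, with stromal sums of 90.0 and 97.9 CPM with the inhibitor against 30.3 and 31.4 CPM, and myeloid sums of 3791 and 3866 CPM against 2065 and 1908 CPM.

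**Figure D4:**
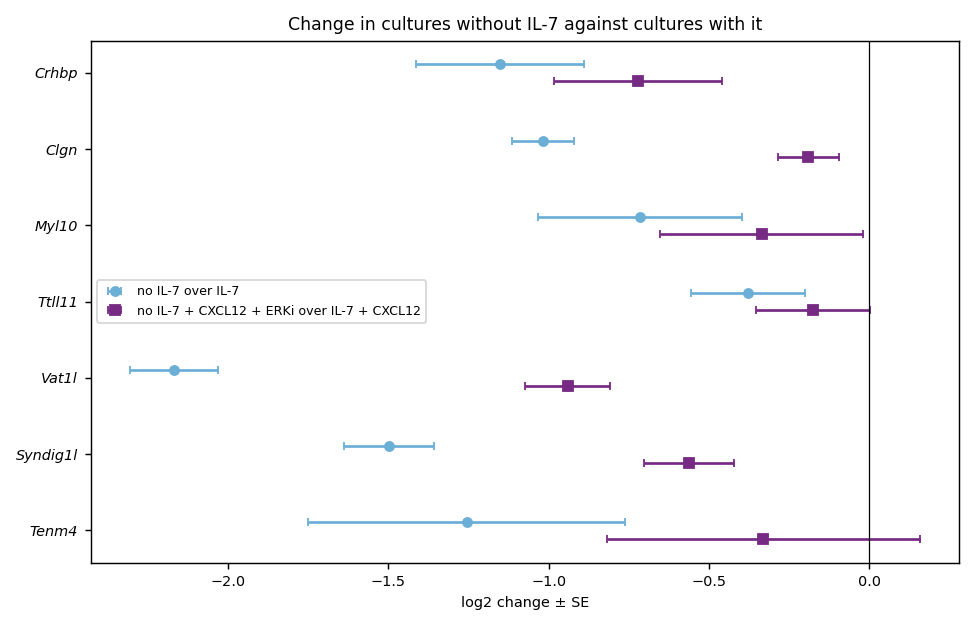
Log2 change ± SE of the 7 genes in cultures without IL-7 over cultures with it, and in cultures without IL-7 with CXCL12 and the ERK inhibitor over cultures with IL-7 and CXCL12, 2 libraries per group. All points lie left of 0, and Vat1l lies furthest left in both contrasts, at -2.17 and -0.94.

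Across the 9 groups the 7 genes were ordered alike at the low end. Sorted wild-type cells had the lowest mean of Crhbp (0.470 ± 0.12 CPM), Clgn (0.663 ± 0.22 CPM), Myl10 (6.05 ± 1.1 CPM), Ttll11 (2.87 ± 0.13 CPM) and Tenm4 (0.625 ± 0.19 CPM), each with n = 2. For Syndig1l the cultures without IL-7 with CXCL12 were lowest (1.63 ± 0.26 CPM), just below sorted wild-type cells (2.03 ± 0.078 CPM), and for Vat1l both sorted groups were at 0. For Crhbp, Clgn and Ttll11 the cultures with CXCL12 lay between the sorted CXCR4-/- and the sorted wild-type group.

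The top of the order differed between genes. Crhbp (296 ± 6.4 CPM), Syndig1l (67.0 ± 3.4 CPM) and Tenm4 (132 ± 2.8 CPM) were highest with IL-7 alone. Clgn (175 ± 1.9 CPM) and Vat1l (190.4 ± 6.5 CPM) were highest in CXCR4-/- cultures with CXCL12. Myl10 (1956 ± 1149 CPM) and Ttll11 (67.0 ± 24 CPM) were highest in CXCR4-/- cultures without IL-7, where replicate 1 stood apart. Among neighbours in the order, libraries overlapped for Clgn between CXCR4-/- cultures without CXCL12 and cultures with IL-7, and for Myl10 between cultures with IL-7 and with both factors. They also overlapped for Ttll11 among the 3 highest groups, for Syndig1l between the CXCR4-/- groups, and for Tenm4 between CXCR4-/- cultures with CXCL12 and cultures with both factors, and between cultures without IL-7 and with the ERK inhibitor.

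The relatives of the 7 genes in their families did not fall as a block. Of 93 genes listed as relatives or partners, 85 were in the table and 61 were tested. With CXCL12 and without IL-7, 5 were called higher and 6 lower, 18.0% of the 61 beside 30.6% of all genes, with a median log2 change of 0.00 beside 0.09 over all genes. The count was 23 without the CXCR4-/- culture that stood apart, in a fit that called 51% of all genes, and 2 with the close pairs each summed to 1 library. Agbl1, which trims glutamate chains, was called higher by 2.84 ± 0.63 (adjusted p = 0.0053), a call lost without replicate 2 of the cultures without IL-7 (adjusted p = 0.0599).

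The list for Ttll11 held tubulin ligases and also Agbl1, which is no ligase. Of its 14 tested genes 2 were called higher with CXCL12, Ttll3 and Agbl1, and 3 lower. Ttll12 changed by -0.73 ± 0.09 (adjusted p = 6.0e-05), Ttll1 by -0.70 ± 0.14 (adjusted p = 0.0027) and Ttll3 by 0.66 ± 0.13 (adjusted p = 0.0025). Among the 15 myosin genes, Myh10, a heavy chain of non-muscle myosin II, changed by -1.40 ± 0.30 (adjusted p = 0.0041) and averaged 107 CPM with CXCL12 against 282 CPM without it. Myl9, a light chain of smooth muscle and non-muscle myosin, changed by 1.47 ± 0.34 (adjusted p = 0.0073), at 70.1 CPM with CXCL12 against 25.4 CPM, and was not called without any 1 of 3 of the 4 libraries (adjusted p of 0.0546 to 0.0707).

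Canx (calnexin), the widely expressed relative of Clgn, changed by -0.39 ± 0.07 (adjusted p = 0.0021), and 1 of 7 genes of its group was called. Vat1 rose with CXCL12 where Vat1l was lower, by 1.26 ± 0.17 (adjusted p = 1.9e-04), at 149 CPM against 62.2 CPM, and Ptgr1, a reductase of the same family, changed by -0.79 ± 0.23 (adjusted p = 0.020). Flrt2, a ligand in teneurin complexes, changed by 1.23 ± 0.33 (adjusted p = 0.019) as the only 1 of 7 tested in the group of Tenm4. The calls of Flrt2 and Ptgr1 were lost without any 1 of the 4 libraries (adjusted p of 0.0857 to 0.115 and of 0.081 to 0.104). None of 9 tested relatives of Syndig1l, nor the 1 tested gene of the corticotropin-releasing hormone system, was called. Myl9, Vat1 and Flrt2 were higher in the same libraries as the stromal sum, and the part of stromal RNA in them was not tested. Counts of the Ifitm genes, of Myl6, Myl12a and Myl12b, and of Ppib are uncertain because near-identical copies can split reads.

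**Figure D5:**
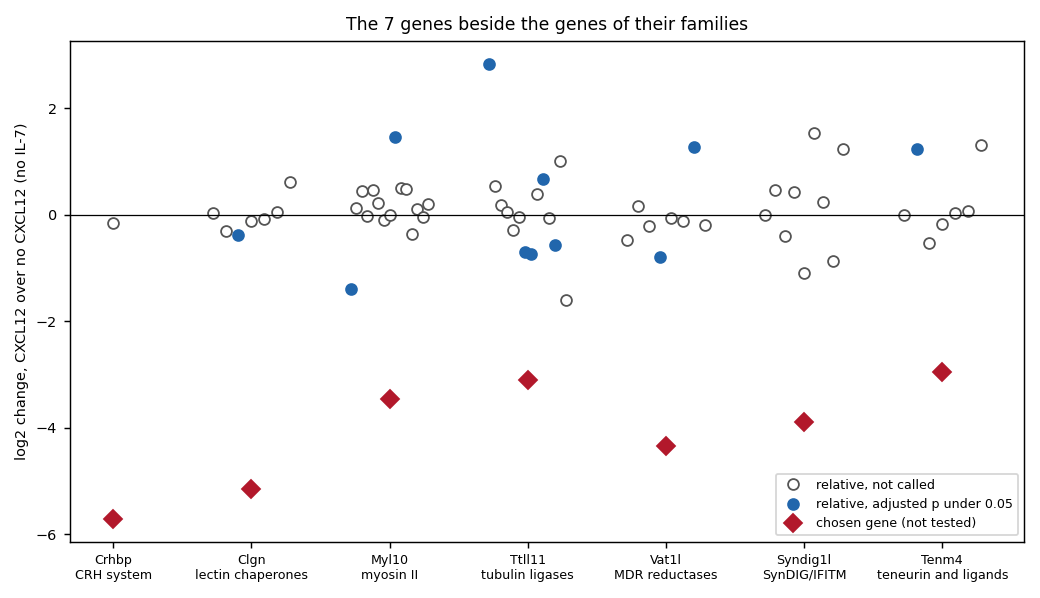
Log2 change with CXCL12 over no CXCL12, both without IL-7 in CXCR4-sufficient cultures, for the 7 genes (diamonds, not tested) and the tested relatives in each family (circles, filled where the adjusted p was under 0.05). The relatives scatter around 0, with 5 called higher and 6 lower, while the 7 genes lie between -5.71 and -2.95.

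In sorted cells 12 of the 61 relatives were called higher in CXCR4-/- than in wild-type cells and 1 lower, 21.3% beside 34.2% of all genes. Myh10 rose by 1.73 ± 0.34 on the log2 scale (adjusted p = 0.0018), to 18.1 CPM in sorted CXCR4-/- cells against 5.49 CPM in wild-type cells. Lphn1, a receptor for teneurins, rose by 1.68 ± 0.18 (adjusted p = 2.1e-05), to 44.4 CPM against 13.9 CPM, and Ttll12 by 0.87 ± 0.09 (adjusted p = 1.4e-05). Without IL-7, 3 relatives were called higher and 9 lower than with it, 19.7% beside 11.8% of all genes. In the group of Clgn 4 of 7 were lower, among them Canx by -0.58 ± 0.07 (adjusted p = 3.7e-04) and Calr, the soluble chaperone calreticulin, by -0.51 ± 0.14 (adjusted p = 0.037). Without any 1 of the 4 libraries only Canx of the 4 was still called, with adjusted p of 0.141 to 0.195 for Calr, 0.147 to 0.212 for Pdia3 and 0.134 to 0.263 for Calr3. With the ERK inhibitor against IL-7 and CXCL12, 2 relatives were called higher and 1 lower, 4.92% beside 11.0% of all genes. In the difference of the CXCL12 response between genotypes 8 relatives were called higher and 7 lower, 24.6% beside 25.2% of all genes.

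Genes whose levels followed the 7 most closely over the 9 group means are given as a description, from Pearson's r of log2 CPM, with groups that share sets of libraries. The nearest were Psat1 for Crhbp (r = 0.989) and also for Ttll11 (0.987), Enpep for Clgn (0.989), Cars for Myl10 (0.992), Tubb3 for Vat1l (0.995), Ascc2 for Syndig1l (0.979) and Phtf1 for Tenm4 (0.993). Psat1 and Cars belong to serine synthesis and to tRNA charging, and Enpep is the surface aminopeptidase known as BP-1 on early B cells. The sizes of change differ between such pairs, Phtf1 averaging 52.2 CPM with CXCL12 against 59.9 CPM without it, and Psat1 86.2 CPM against 195 CPM. Next in likeness were D630039A03Rik (0.986) and Ptpn7 (0.984) for Crhbp, Acsl5 (0.988) and Elovl6 (0.987) for Clgn, and Bcat1 (0.991) and Bst1 (0.990) for Myl10. They were Cdca7l (0.987) and Sclt1 (0.986) for Ttll11, Gldc (0.993) and Gars (0.989) for Vat1l, F2rl3 (0.979) and Orc1 (0.978) for Syndig1l, and Pde11a (0.989) and Dhcr7 (0.985) for Tenm4. Among the 7 themselves r ran from 0.820 for Syndig1l and Tenm4 to 0.987 for Myl10 and Vat1l. The 7 were picked for a like fall between groups that enter these means. High r among them was therefore built in to that extent and is no separate result.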

How the data were processed

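RNA was measured by polyadenylated, stranded RNA-seq of flow-sorted or cultured B lineage cells, per the labels' protocols. The authors deposited 1 table of raw read counts per gene symbol. STAR, featureCounts, BWA, Picard, bedtools and MACS2 and the build mm9 are named in the submitters' processing notes, and for versions, annotation and strandedness of counting the answer is: not given in the sources used here. Overlapping and antisense genes are uncertain for that reason. Columns that belong to no sample numbered 0. ATAC-seq peak lists of 8 libraries, on mm9, were not used here.

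The deposited counts were fitted in edgeR 4.0.16 (R 4.3.3) in 1 model of 18 libraries with 1 mean per group, TMM scaling, filtering by expression and robust quasi-likelihood testing, with Benjamini-Hochberg adjustment over 14862 genes and a threshold of 0.05. The SE is the log2 change over the square root of F. The fit was tested on simulated counts with independent replicates and a spread estimated from these data by the same model. Such counts cannot show whether the p-values hold for the close pairs or for the pair that differed widely. Replicate numbers did not pair the libraries, deviations of same-numbered libraries correlating between -0.07 and 0.11. Sequences and motifs were read with Python 3.11.15.

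The genes and the lists of relatives and markers were chosen with earlier results of these data known. Named were all 7 genes, the 3 genes most like each, up to 4 called relatives per family by smallest p, and Cxcr4, Gapdh and markers; Vpreb1, Vpreb2, Igll1 and the genes ranked beside the 7 were added after their values were seen. Alternatives were DESeq2 1.42.0, RLE factors, fits of only the groups compared, a block by replicate number, no filter or one of at least 1 CPM in 2 libraries, omission of the 4 Gapdh-high libraries and of each library in turn, and, added after the data were seen, omission of the CXCR4-/- culture that stood apart and close pairs summed to 1 library. Floors cover counting error only, while an SE also holds the spread between libraries, pooled over the groups fitted.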

Additional observations from a re-analysis of the deposited data

Results flagged for a closer look

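The response to CXCL12 without IL-7 differed between genotypes for 15 of 61 relatives of the 7 genes, by a test of the difference itself (CXCR4-/- minus sufficient, log2, edgeR's quasi-likelihood test), 24.6% beside 25.2% of all genes. The 6 given here had also been called in sufficient cultures, and that change is one part of the difference tested. Myh10, the myosin heavy chain, differed by 2.18 (adjusted p = 0.0032), with changes of 0.78 in CXCR4-/- and -1.40 in sufficient cultures. Ttll1 differed by 1.01 (adjusted p = 0.0037), with changes of 0.31 in CXCR4-/- and -0.70 in sufficient cultures. Ttll12 differed by 0.69 (adjusted p = 0.0019), with changes of -0.05 in CXCR4-/- and -0.73 in sufficient cultures, and Canx by 0.53 (adjusted p = 0.0039), with changes of 0.14 and -0.39 in the same 2 genotypes. In the other direction Vat1 differed by -1.26 (adjusted p = 0.0038), with changes of 0.01 in CXCR4-/- and 1.26 in sufficient cultures, and Ttll3 by -0.65 (adjusted p = 0.026), with changes of 0.01 and 0.66 in the same genotypes. Ttll3 was not called without either replicate of CXCR4-/- cultures with CXCL12, either replicate of sufficient cultures with CXCL12 or replicate 2 of sufficient cultures without it (adjusted p of 0.060 to 0.110). Without the CXCR4-/- culture that stood apart the differences were 1.77 for Myh10, 0.94 for Ttll1, 0.85 for Ttll12, 0.58 for Canx, -1.24 for Vat1 and -0.69 for Ttll3. Of the stromal markers 13 were tested in the same contrast, with a median difference of 0.05 beside -0.14 over all genes. That median compares log2 ratios at very different levels. In sufficient cultures the stromal sum was 4250 and 4145 CPM with CXCL12 against 1699 and 1663 CPM without it. In CXCR4-/- cultures it was at most 11.1 CPM in either medium. The median thus does not show how much stromal RNA was added in each genotype, and its part in these differences was not tested.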

How the results depend on the processing

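Of the tested results 0 changed direction under the alternatives run. Of the described values, 5 changed sign with 1 library left out, in CXCR4-/- cultures Ttll11 (-0.42) to 0.01 and Syndig1l (0.01) to -0.07 and -0.0041, and with IL-7 Myl10 (-0.02) to 0.01 and 0.05. Without the CXCR4-/- culture that stood apart, 8033 genes were called between sorted groups beside 5079, all 7 chosen genes and 4999 genes without IL-7 beside 4 and 1758, 5 chosen genes and 4661 genes with the ERK inhibitor beside 2 and 1640, and 23 relatives and 7803 genes with CXCL12 beside 11 and 4543. Fitted on only the groups compared, these were 7 and 7299 without IL-7, 6 and 6068 with the inhibitor, and 39 and 10790 with CXCL12. With close pairs summed to 1 library, 355 genes were called without IL-7, and 2 relatives and 1149 genes with CXCL12. For the loss of IL-7, DESeq2 called 2676 genes, and 1069 were called without the Gapdh-high libraries. Leaving out 1 library in turn gave 4 to 5 chosen genes and 3137 to 4686 genes between sorted groups, 3 chosen genes and 589 to 851 genes without IL-7, 1 chosen gene and 655 to 720 genes with the inhibitor, and 6 to 8 relatives and 2257 to 2573 genes with CXCL12, each from a fit with fewer samples. The replicate numbers did not pair the libraries, and with the replicate block the calls were 5, 4 and 2 chosen genes, 12 relatives and 5006, 1650, 1536 and 4410 genes. The causes of the other shifts were not tested. In sorted wild-type cells few reads of Crhbp, Clgn and Tenm4, and 0 of Vat1l, limit the precision.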

Other observations

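Genes next to the 7 on the chromosome, by RefSeq order and picked by position after the data were seen, are given as values with no test. Of 14 flanking genes 10 were tested, and 8 of them had a mean log2 CPM of at least 3. With CXCL12 and without IL-7 these 8 changed by between -0.67 and 0.23 on the log2 scale, Cux1 beside Myl10 standing at -0.67 ± 0.15 and Nudt7 beside Vat1l at 0.23 ± 0.27. Vrtn, the neighbour of Syndig1l, stood at -3.08 ± 0.95 at a mean log2 CPM of -2.46, a level of very few reads.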
